A study of Drosophila melanogaster with 6 samples.

Results

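The Obp56 genes are a group of odorant binding protein genes that lie near each other on chromosome arm 2R of Drosophila melanogaster. The 9 genes Obp56a to Obp56i were taken by symbol, through their FlyBase identifiers, from the 17476 genes counted in each library, and all 9 were found. The data came from poly(A)+ RNA of hand-dissected wings of flies 3 days after eclosion, with 3 libraries labelled Poxn 70 and 3 libraries labelled w1118 Canton-S, here called Poxn and control. Poxn encodes a Pax family transcription factor that directs bristle precursors to form taste bristles rather than touch bristles, and wings of the mutant lack chemosensory sensilla. The study compared the genotypes to find genes expressed in those sensilla. According to the study's methods, mutant lines were backcrossed to the w1118 Canton-S strain, so that both genotypes carried the white mutation. Each library pooled wings of many flies: the labels give 8000 wings from 4000 flies, a number that cannot be squared with the total in the study's text and is therefore uncertain. The sex of the flies in the pools is not given in the sources used here.

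Odorant binding proteins are small proteins that support cells of insect sensilla secrete into the fluid around the sensory dendrites, where they bind hydrophobic molecules such as odorants and pheromones. Many family members are made outside the antenna, in taste organs and in the reproductive tract, and the genes often lie in tandem groups. Obp56d is known from antennal and taste organs, Obp56g from taste bristles and the male ejaculatory bulb, and Obp56e, Obp56f and Obp56i, with Obp56g, from lists of seminal fluid proteins. Obp56h has been linked to mating behaviour and cuticular hydrocarbons in males.

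Counts on genes ranged from 14021115 to 16182811 in the libraries labelled Poxn and from 10074860 to 14269486 in the control libraries. Levels are given as CPM, a gene's count scaled to a common library size, with library sizes corrected by edgeR's TMM factors, which assume that most genes do not differ. These factors ran from 1.76 to 1.87 in Poxn and from 0.246 to 1.28 in control libraries, so the choice of scaling moved every level. The median log2 fold change of all tested genes, Poxn over control, was 0.01 with TMM factors and 1.40 with plain totals. Transcripts of the targeted gene Poxn had 92, 86 and 85 counts in the libraries labelled Poxn and 0, 6 and 3 counts in those labelled control, a log2 fold change of 2.95 (SE 0.80; edgeR's quasi-likelihood test, adjusted p = 0.0557). The count of the targeted gene was thus higher, not lower, in the libraries labelled as mutant, and every direction below follows the labels. Transcription factors of the wing field (vg, sd, ap, nub, bi, en and inv) were detected in both groups, at a summed level of 168.6 to 194 CPM in Poxn and 225 to 597 CPM in control libraries. Of this sum, bi made up 46.11 to 64.87 CPM in Poxn and 89.85 to 492.1 CPM in control libraries. With TMM factors vg was also lower in Poxn without overlap. The gene en was higher, at 6.13 to 6.63 CPM in Poxn and 0.315 to 1.81 CPM in control libraries, and sd, ap, nub and inv overlapped.

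The 9 genes spanned 171 kb of 2R in the release 6 assembly, 5 on the plus strand and 4 on the minus strand, and each had 2 exons. Obp56a (FBgn0034468, 19697723 to 19698508, plus strand), Obp56b (FBgn0046880, 19698714 to 19699346, minus), Obp56c (FBgn0046879, 19699995 to 19701124, minus) and Obp56d (FBgn0034470, 19702924 to 19703915, minus) lay within a few kilobases of one another. Obp56e (FBgn0034471, 19712345 to 19712932, plus) and Obp56f (FBgn0043533, 19713395 to 19713976, plus) followed, 462 nt apart. A gap of 69507 nt that holds the tandem 5S ribosomal RNA genes separated them from Obp56g (FBgn0034474, 19783484 to 19784043, minus). Obp56h (FBgn0034475, 19815554 to 19816204, plus) and Obp56i (FBgn0043532, 19864717 to 19868714, plus) lay farther out. The longest transcripts were 495 nt (Obp56g) to 972 nt (Obp56c) long, and the coding sequences had 125 codons (Obp56f) to 245 codons (Obp56c). The exons of Obp56e overlapped the antisense RNA gene asRNA:CR44509 over 449 of 532 bases (84.4%), and whether reads were counted by strand is not given in the sources used here. The other 8 genes shared no exon base with another annotated gene.

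Of the 9 genes, 8 had at least 1 count and 5 reached 10 counts in some library. The genes were very unequal. Of 56249 counts on all 9 in the 6 libraries, Obp56d took 98.5%. Only Obp56a and Obp56d passed the filter on low counts, among 8973 genes that did. Per kilobase of the longest transcript, the mean levels in Poxn wings ran in the order Obp56d (325 CPM per kb), Obp56f (5.76), Obp56a (2.78), Obp56i (0.245) and Obp56g (0.231), and in control wings in the order Obp56d (2042), Obp56a (14.1), Obp56g (6.22) and Obp56f (0.233). Obp56d stood above every other member in each library. Obp56a, at 1.40 to 4.56 CPM per kb, lay above Obp56g and Obp56i in each Poxn library. The levels of Obp56f and Obp56a in Poxn wings, of Obp56i and Obp56g in Poxn wings, and of Obp56a and Obp56g in control wings overlapped, so their order is not beyond the spread of the libraries.

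**Figure D1:**
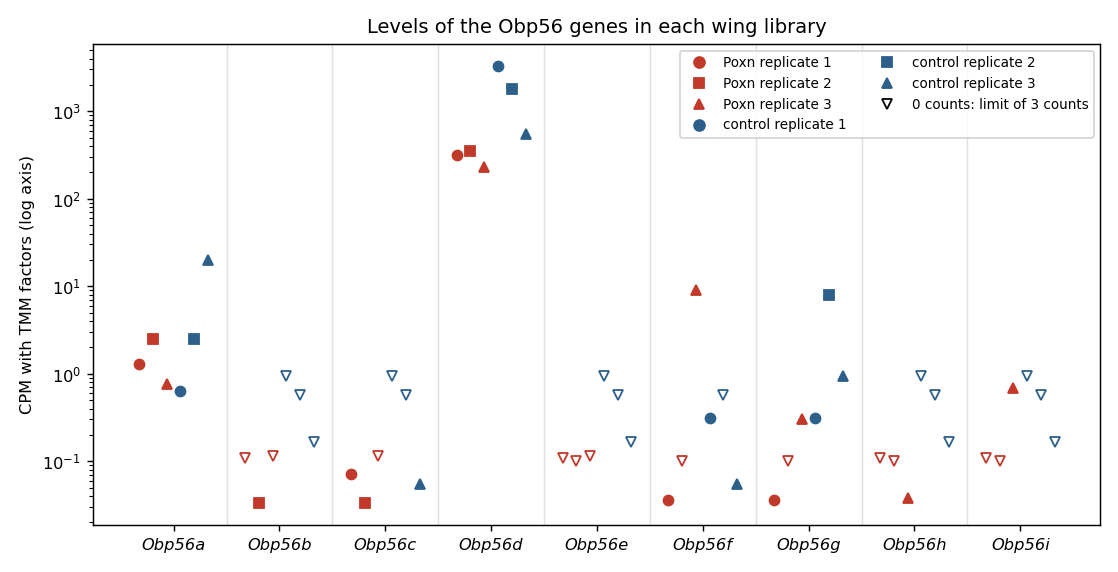
CPM with TMM factors (log axis) of each Obp56 gene in the 6 wing libraries, with Poxn replicates 1 to 3 left of control replicates 1 to 3 and open triangles at the level of 3 counts for libraries with 0 counts. Obp56d lies between 232.5 and 3301 CPM in every library, far above the other genes. Obp56f stands out in Poxn replicate 3, where Obp56i has its only counts, below the limit of control replicate 1.

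**Figure D2:**
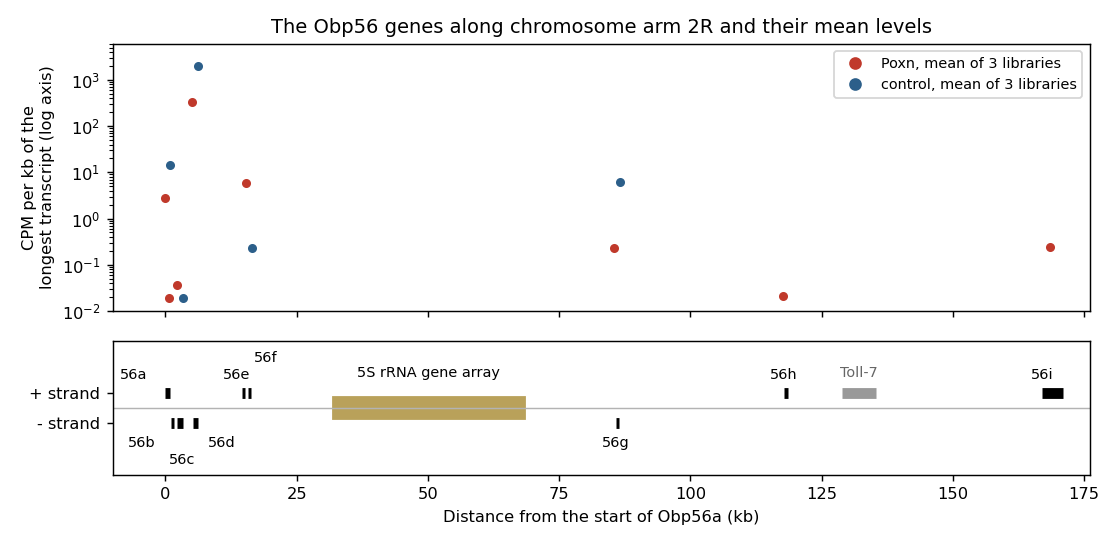
Mean CPM per kb of the longest transcript (log axis, upper panel) and gene models by strand (lower panel) against distance from the start of Obp56a in kb, for Poxn and control wings (3 libraries each; genes with a mean of 0 have no point). The points of each gene are drawn slightly apart, and the highest levels belong to Obp56d at the dense end of the group, on the near side of the 5S rRNA gene array.

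Obp56d was the dominant Obp56 transcript of the wing in both genotypes. It had 8773, 10542 and 6067 counts in Poxn replicates 1 to 3 and 10499, 9422 and 10102 counts in control replicates 1 to 3. In CPM with TMM factors it stood at 316, 351 and 232.5 in Poxn wings and at 3301, 1794 and 554 in control wings. The groups did not overlap: the lowest control library was 1.58 times the highest Poxn library. The control libraries differed among themselves by 5.96-fold, against 1.51-fold among the Poxn libraries. The mean was 299.8 ± 60.7 CPM in Poxn and 1883 ± 1376 CPM in control wings (SD, n = 3 each), and a two-sided exact permutation test over libraries gave p = 0.1, the smallest value that 3 against 3 allows. For comparison, 17.9% of the 8973 tested genes were likewise lower in Poxn without overlap.

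The study's criterion asked for a change above 4-fold together with an adjusted p below 0.01 in DESeq2's test. With these thresholds, Obp56d passed in DESeq2 and did not pass in edgeR, the test used here for calls unless another is named. The log2 fold change in edgeR, Poxn over control, was −2.65 (SE 0.78; quasi-likelihood test, adjusted p = 0.0641). With plain totals in place of TMM factors, Obp56d had 555, 651 and 433 CPM in Poxn wings and 811.5, 935 and 708 CPM in control wings. These still did not overlap, which held for 2.72% of tested genes in that direction, but the gap narrowed to 1.09-fold and the mean was 546 ± 110 against 818 ± 114 CPM (SD, n = 3 each; exact permutation test, two-sided, p = 0.1). The log2 fold change with totals was −0.58 (edgeR, adjusted p = 0.452), a difference of −1.98 from the median of all genes under that scaling. DESeq2 with its own size factors called Obp56d lower, at −2.82 (SE 0.67, adjusted p = 0.000382), as it did 673 of 8973 genes (7.5%, with 0.736% called higher).

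In the fit with totals and a correction for transcript length, the Obp56d estimate was 0.13 (edgeR, adjusted p = 0.859), so its direction turned, while its difference from the median of all genes was −1.35. Short transcripts took unequal shares of the libraries, 5.68% to 7.03% of counts in Poxn and 16.6% to 30.6% in control libraries for genes under 600 nt, and the part of this in the Obp56 values cannot be told apart from genotype. The annotated Obp56d transcripts have 591 and 922 nt, and the counts do not say which was present. Of 12 equal groups of tested genes by length, the group nearest to the longer one (median 899 nt) had a median log2 fold change of −0.80. The 364 genes under 600 nt, a range that holds Obp56a and the shorter Obp56d transcript, had −1.90, against 0.01 for all tested genes. With length offsets and TMM factors the median of the 364 short genes was −0.04, and Obp56d, taken at its longest transcript, was at −2.03 (edgeR, adjusted p = 0.168). Obp56a came to −1.09 (adjusted p = 0.558) with length offsets and TMM factors, and to −0.30 (adjusted p = 0.805) with length offsets and totals.

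**Figure D3:**
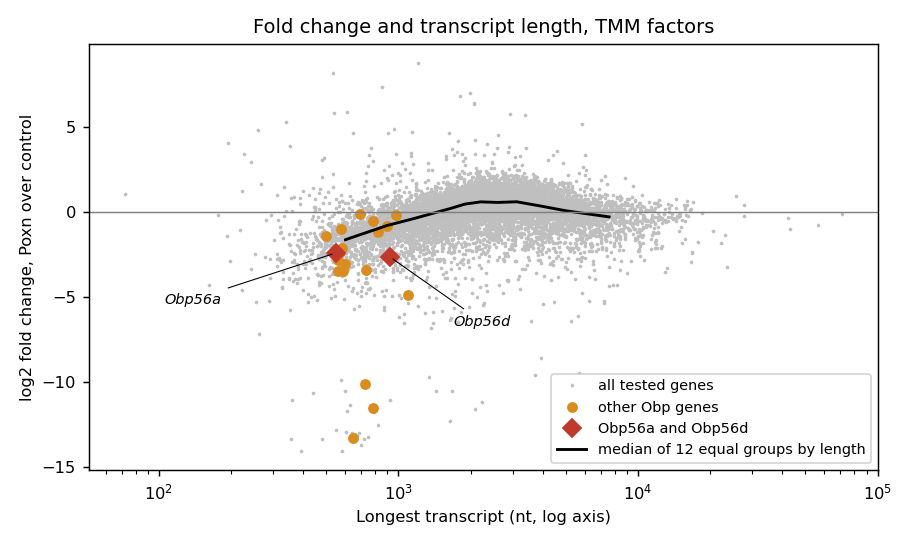
log2 fold change, Poxn over control with TMM factors, against the longest transcript in nt (log axis) for all tested genes, the other Obp genes and Obp56a and Obp56d, with the median of 12 equal groups by length as a line. The line starts at −1.63 for the shortest group and reaches 0.60 near 3115 nt, and Obp56a and Obp56d both lie below it.

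**Figure D4:**
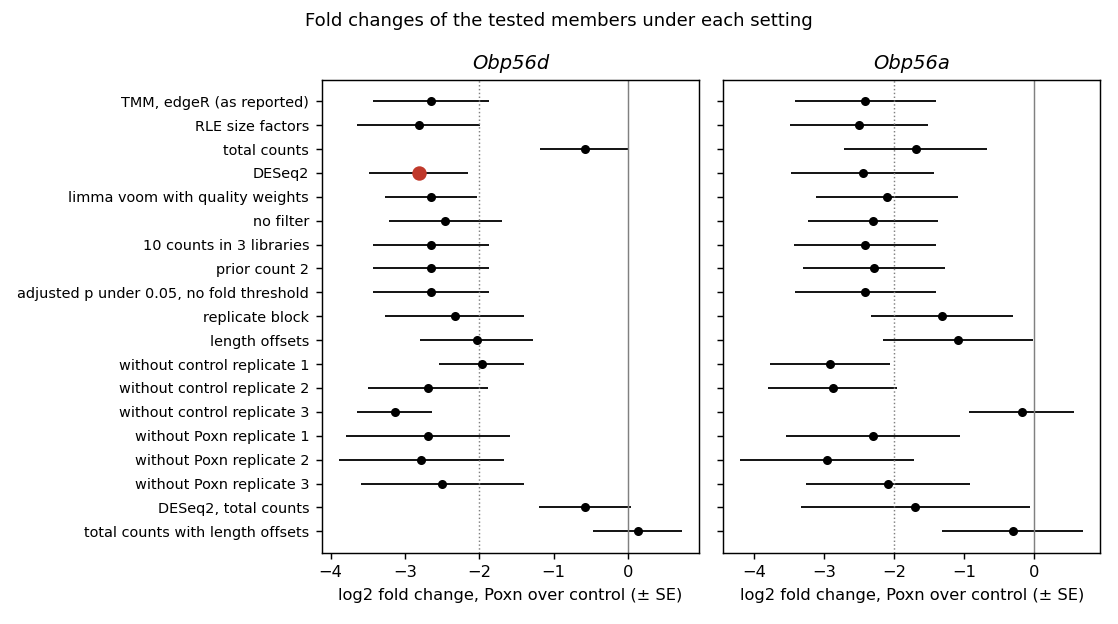
log2 fold change, Poxn over control, with its standard error for Obp56d (left) and Obp56a (right) under each setting, where the dotted line marks 4-fold lower and the red point a call at the criterion. Obp56d is called by DESeq2 and ranges from −3.14 to 0.13 over the alternatives, and Obp56a comes to −0.18 without control replicate 3.

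Within the Obp family, the share of Obp56d moved the other way from its CPM level. It took 6.45%, 8.80% and 5.18% of all Obp counts in Poxn replicates 1 to 3, against 2.26%, 2.82% and 3.28% in control replicates 1 to 3. The lowest Poxn share had a 95% Wilson interval of 5.05% to 5.31% and the highest control share one of 3.21% to 3.34%. The groups did not overlap, and this measure needs no scaling between libraries. How many other Obp genes gained share in the same way was not counted, so the rise is not shown to be particular to Obp56d. The summed Obp counts were 117173 to 136107 in Poxn and 308347 to 463906 in control libraries, so the denominator differed more than Obp56d itself. Intervals and limits here cover counting error only and leave out differences between libraries. They also treat each read as independent, and PCR copies are not independent molecules, so they can be too narrow.

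Obp56d ranked between 167 and 258 among all genes by counts per kilobase in the Poxn libraries and between 129 and 212 in the control libraries. Among the Obp genes it ranked 5 to 7 in Poxn and 5 to 8 in control libraries. Its rank thus overlapped between the genotypes. Within the Obp56 genes it took 95.5% to 99.6% of counts in Poxn and 96.3% to 99.96% in control libraries. The lowest Poxn share came from replicate 3, with its Obp56f counts, and the lowest control share from replicate 3, with its Obp56a counts.

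The genes with the profile most like that of Obp56d over the 6 libraries were piwi, RpL10 and RpL13A. Likeness was the root mean square difference of log2 CPM, each gene centred on its own mean, and came to 0.19 for piwi, 0.20 for RpL10 and 0.23 for RpL13A, against a median of 1.61 over all tested genes. RpL10 and RpL13A encode proteins of the large ribosomal subunit. With TMM factors their log2 fold changes were −2.61 and −2.62, beside −2.65 for Obp56d. RpL10 had 12052 to 16125 counts in Poxn and 14606 to 17039 counts in control libraries. The Argonaute gene piwi, which acts with small RNAs in the germ line, had 7 to 10 counts in Poxn and 13 to 16 counts in control libraries, too few to fix a profile closely.

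Of 4 listed markers of sensillum support cells, the cells that make odorant binding proteins, 2 were lower in the libraries labelled Poxn by edgeR's criterion, as were 0.602% of all tested genes. The list of nompA, pros, sv and Su(H) summed to 41.3 to 43.1 CPM in Poxn and 100.2 to 172 CPM in control libraries, and all 4 were detected. nompA, whose product links the dendrite to the cuticle, had 10, 3 and 5 counts in Poxn and 33, 140 and 379 counts in control libraries (log2 fold change −6.44, edgeR, adjusted p = 0.00172). pros, a transcription factor gene of sheath cells, had 11.4, 7.28 and 8.51 CPM in Poxn and 97.8, 109.5 and 53.3 CPM in control libraries (log2 fold change −3.26, edgeR, adjusted p = 0.00682). These 2 genes carried the difference of the sum. The other listed genes overlapped between the genotypes with TMM factors: sv was at 0.46 (edgeR, adjusted p = 0.570) and Su(H) at −0.12 (adjusted p = 0.828) on the log2 scale, and with plain totals at 1.83 and 1.51. In bulk wings, fewer cells of a type and less RNA per cell cannot be told apart, and the part of these cells in the Obp56d level was not tested.

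Obp56a was low and uneven. It had 36, 75 and 20 counts in Poxn replicates 1 to 3 and 2, 13 and 365 counts in control replicates 1 to 3. This was 1.30, 2.49 and 0.766 CPM in Poxn and 0.629, 2.47 and 20.02 CPM in control wings, so the groups overlapped and control replicate 3 stood far above the rest. The control libraries spanned 31.8-fold and the Poxn libraries 3.25-fold. The mean was 1.52 ± 0.885 CPM in Poxn and 7.71 ± 10.7 CPM in control wings (SD, n = 3 each; exact permutation test, two-sided, p = 0.7).

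The fitted log2 fold change of Obp56a was −2.42 (SE 1.01; edgeR, adjusted p = 0.141), and it came to −0.18 (adjusted p = 0.878) without control replicate 3. The estimate therefore rested on that library. Among the Poxn libraries Obp56a was highest in replicate 2, where markers of the digestive tract summed to 230.2 CPM, against 8.89 to 9.41 CPM in the other Poxn libraries and 9.71 to 22.2 CPM in control libraries. Markers of flight muscle were also highest in Poxn replicate 2, at 287.6 CPM. They summed to 111.0 and 139.7 CPM in the other Poxn libraries and to 148.4 to 212.6 CPM in control libraries. The part of either tissue in the Obp56a level was not tested.

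The profiles closest to Obp56a were those of Srg3 (0.50), dyw (0.64) and CG8620 (0.84), against a median of 1.73 over all tested genes. Both of the closest were likewise high in control replicate 3. Srg3 had 73, 139 and 61 counts in Poxn and 8, 38 and 453 in control libraries. dyw, a gene of the takeout family of secreted proteins, had 408, 503 and 274 counts in Poxn and 32, 54 and 2134 in control libraries.

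By edgeR, 0 of the 2 tested Obp56 genes passed the criterion in either direction, beside 54 of 8973 tested genes (0.602%) lower and 5 (0.0557%) higher in Poxn. Both had an unadjusted p under 0.05 with a lower value in Poxn, which 17.8% of all tested genes did. DESeq2 called 1 of them lower and limma voom called 0. Their median log2 fold change was −2.53 with TMM factors, against 0.01 for all tested genes.

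The other 42 Obp genes served as the family to set these beside. Of them, 38 had a count and 18 were tested. Their median log2 fold change was −2.61 with TMM factors and −0.68 with plain totals, against 0.01 and 1.40 for all tested genes. With TMM factors the estimates of all 18 were negative, beside 4464 of the 8973 tested genes. With plain totals 11 of the 18 were negative, beside 1054 of the 8973. By edgeR's criterion, 3 of the 18 were lower and 0 higher, namely Obp19b (−13.32), Obp49a (−11.52) and Obp50a (−10.12). At an unadjusted p under 0.05, 11 of the 18 were lower, and DESeq2 called 9 lower. The estimates of Obp56a and Obp56d thus lay near the middle of the family, and neither approached those of the 3 called genes. Obp50a had 1, 0 and 0 counts in Poxn and 65, 153 and 243 in control libraries, so its fitted value depends on the prior count and is no bound.

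Obp56f was a transcript of 1 library. It had 1, 0 and 237 counts in Poxn replicates 1 to 3 and 1, 0 and 1 in control replicates 1 to 3. Poxn replicate 3 held 98.75% of its counts, at 9.08 CPM, at least 91.0-fold higher than Poxn replicate 2 and at least 15.9-fold higher than control replicate 2 against the limit of 3 counts per library. Obp56f thus differed between replicates of Poxn, and the genotypes overlapped.

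Obp56i followed the same library with fewer counts. It had 18 counts in Poxn replicate 3 (0.690 CPM) and 0 in each of the other 5 libraries. Against the limit of 3 counts this was at least 6.38-fold higher than Poxn replicate 1, at least 6.91-fold higher than Poxn replicate 2, at least 4.19-fold higher than control replicate 3 and at least 1.21-fold higher than control replicate 2. In control replicate 1 that limit (0.943 CPM) lay above the value of Obp56i, so a like level there was not detectable at this depth.

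Of 13883 genes with a count, 90 (0.648%) had 10 counts or more in Poxn replicate 3 and 3 or fewer in each other library, as Obp56f and Obp56i did. Such genes numbered 14 (0.101%) and 51 (0.367%) for Poxn replicates 1 and 2, and 5 (0.036%), 18 (0.13%) and 40 (0.288%) for control replicates 1 to 3. Without the filter on low counts, the log2 fold change of Obp56f was 5.24 (edgeR, adjusted p = 0.165) and that of Obp56i was 5.14 (adjusted p = 0.325), and neither passed the criterion.

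Markers of the male reproductive tract were high in the same library. Acp36DE, a seminal protein needed for sperm storage, had 28, 24 and 2250 counts in Poxn replicates 1 to 3 and 3, 1 and 10 in control replicates. Acp26Aa, which encodes the ovulation hormone ovulin, had 16, 8 and 987 counts in Poxn and 1, 1 and 11 in control replicates. SP, the sex peptide gene, had 7, 8 and 281 counts in Poxn and 5, 1 and 10 in control replicates. In each of these genes Poxn replicate 3 stood above the 5 other libraries, which overlapped between the genotypes in CPM with TMM factors. In plain counts those of Acp36DE did not overlap.

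Of the 16 listed male tract markers, 15 had a count and Met75Ca was at 0 in every library. Among 10077 genes with 10 counts or more in some library, 141 (1.4%) were at least 5-fold higher in Poxn replicate 3 than in every other library. This compared observed CPM, so a gene with 0 counts in every other library also passed. These 141 genes included 10 of the 16 markers, at 6.85-fold to 100.4-fold, and the Obp genes Obp56f, Obp56i and Obp22a. Obp56i passed only through its 0 counts elsewhere. Against the limit of 3 counts its bound was 4.19-fold over control replicate 3 and 1.21-fold over control replicate 2, with none over control replicate 1. Obp22a, another seminal fluid gene, was chosen after its values were seen. It had 0, 0 and 94 counts in Poxn and 0, 0 and 4 in control replicates. Obp51a, looked up beside it, did not follow replicate 3, with 0, 2 and 1 counts in Poxn and 0, 1 and 1 in control replicates. The summed level of the list was set by EbpIII, with 268538 to 467015 counts in Poxn and 309386 to 1120822 in control libraries. Without it the sum was 15.3, 20.5 and 304.5 CPM in Poxn replicates 1 to 3 and 10.7, 7.42 and 15.8 CPM in control replicates 1 to 3. Dup99B, a peptide of the ejaculatory duct, was not particular to replicate 3, with 308, 498 and 296 counts in Poxn and 7, 29 and 199 in control replicates. The part of male tract RNA in the Obp56f and Obp56i counts was not tested.

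Obp56g, needed in males for the mating plug, was highest in control replicates 2 and 3. It had 1, 0 and 8 counts in Poxn replicates 1 to 3 and 1, 42 and 17 in control replicates 1 to 3. With TMM factors the levels were 0.0360, 0 and 0.307 CPM in Poxn and 0.315, 7.99 and 0.933 CPM in control wings, a separation of 1.03-fold that rested on the single count of control replicate 1. The mean was 0.114 ± 0.168 CPM in Poxn and 3.08 ± 4.27 CPM in control wings (SD, n = 3 each; exact permutation test, two-sided, p = 0.1). With plain totals the groups overlapped (exact permutation test, p = 0.2), and without the filter the log2 fold change was −4.53 (edgeR, adjusted p = 0.0622). Control replicate 2, the highest, was also the library with the most EbpIII counts. The listed Ebp and EbpII had 0 counts there, and the male tract list without EbpIII was lowest there (7.42 CPM). The part of male tract RNA in the Obp56g level was not tested.

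The other 4 genes were at or near 0. Obp56e had 0 counts in all 6 libraries, as did its antisense partner asRNA:CR44509. Obp56b had 1 count, in Poxn replicate 2, and Obp56h had 1 count, in Poxn replicate 3. Obp56c had 2, 1 and 0 counts in Poxn and 0, 0 and 1 in control replicates. These counts are within the limit of 3, which is 0.0998 to 0.115 CPM in Poxn and 0.165 to 0.943 CPM in control libraries, so no level or difference was detectable for them at this depth. Obp56b, Obp56h and Obp56i were thus seen in 1 library each.

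Few neighbours of the Obp56 genes were counted in these libraries. Between the outermost members or within 20 kb of them, the files held 127 other genes, of which 15 had a count and 1 was tested. They included 100 genes and pseudogenes of 5S rRNA, at 0 counts throughout, and 10 tRNA genes and pseudogenes with no more than 1 count in a library. Such RNAs are not polyadenylated and the 5S copies are nearly identical, so these low counts in poly(A)+ libraries say nothing of their expression. Of the 17 other neighbours, 11 had a count. Toll-7, a receptor gene of the Toll family between Obp56h and Obp56i, had 374, 366 and 253 counts in Poxn and 180, 44 and 275 in control libraries. Its log2 fold change was −1.16 with TMM factors (SE 0.64; edgeR, adjusted p = 0.251) and 0.78 with plain totals, so its direction turned with the scaling. CG8517, between Obp56f and Obp56g, had 6, 7 and 2 counts in Poxn and 1, 0 and 22 in control libraries. Or56a, an olfactory receptor gene for geosmin, had 1, 0 and 0 counts in Poxn and 0 in each control library.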

How the data were processed

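The authors used Trim Galore 0.4.0 for trimming and STAR 2.4.2a for alignment to FlyBase r6.09, and deposited, for each of the 6 libraries, raw counts of reads per gene. The tables end as those of HTSeq do, the counter in the submitters' processing notes. Its version and strand setting are not given in the sources used here. Reads on no gene (49.2% to 49.3% in Poxn, 47.9% to 58.6% in control libraries) were left out. A table of the authors' own DESeq2 comparison (mean normalized counts, fold changes and p-values) and its 6 per-library columns were not used.

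Gene models came from Ensembl release 115, on the same release 6 assembly, matched by identifier for 17229 of 17476 genes. Counts were tested in R 4.3.3 with edgeR 4.0.16 (quasi-likelihood F test after TMM scaling). The filterByExpr minimum was 10 counts, and p-values were adjusted by Benjamini-Hochberg over 8973 genes. Exact permutation tests used SciPy 1.17.1. The labels call the replicates independent. The text names all 9 Obp56 genes, other Obp genes past the criterion, overlapping or intervening genes, the 3 closest profiles of each tested member (prior count 2), marker genes and Poxn. Obp22a and Obp51a are outside that rule, and Obp22a was chosen after its values were seen. Members and lists were chosen with earlier results of these data known. Alternatives were RLE size factors, total counts, DESeq2 1.42.0, limma 3.58.1 (voom with quality weights), no filter, 10 counts in 3 libraries, a prior count of 2, no fold threshold, length offsets, the replicate block and leaving out each library. DESeq2 with totals, totals with length offsets and the male tract list without EbpIII were added after the data were seen.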

Additional observations from a re-analysis of the deposited data

How the results depend on the processing

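Over 18 alternatives the log2 fold change of Obp56d ran from −3.14 to 0.13 (adjusted p from 0.000382 to 0.859), was negative in 17 and kept both its direction and its side of the criterion in 16. It was called by DESeq2 and had the opposite sign, 0.13, with totals and length offsets. Relative to the median of all genes it was negative in all 18 (−3.18 to −1.35). Leaving out 1 library gave −3.14 to −1.97. Obp56a was negative in 18 of 18 (−2.96 to −0.18, adjusted p from 0.0505 to 0.878) and was called in none, and its range over left-out libraries was the same, with −0.18 without control replicate 3.

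The count of Obp56 genes lower in Poxn was 1 with DESeq2 and 0 otherwise. Other Obp genes lower in Poxn numbered 9 with DESeq2 and 5 with voom, against 3, and 0 to 4 with a library left out (0 without Poxn replicate 1). Over all genes, 54 lower and 5 higher became 673 and 66 with DESeq2, 218 and 14 with voom, 90 and 13 without the filter, and 444 and 241 at an adjusted p under 0.05 with no fold threshold. Higher calls numbered 3 with RLE factors, 85 with totals, 400 with DESeq2 and totals, and 76 with totals and length offsets. With 1 library left out, lower calls ran from 6 (without Poxn replicate 1) to 237 (without control replicate 3) and higher calls from 1 to 27.

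Same-numbered libraries deviated together weakly or not at all (r = 0.123, 0.142 and −0.068). With 3 libraries per group these values cannot show whether same-numbered libraries shared a batch, and no pairing is stated, so the main fit used none. With the replicate block, 104 genes were lower and 14 higher, Obp56d was at −2.33 (adjusted p = 0.138) and Obp56a at −1.32 (adjusted p = 0.431). Poxn replicates 1 and 2 correlated best with the control library of their own number, and Poxn replicate 3 did not. Depth limits Obp56b, Obp56c, Obp56e and Obp56h, which had at most 3 counts per library, and in control replicate 1 the limit of 3 counts is 0.943 CPM.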

Other observations

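The remaining marker lists are given as summed CPM with TMM factors. Markers of flight muscle summed to 111 to 288 CPM in Poxn and 148 to 213 CPM in control libraries, of fat body to 34.7 to 37.9 CPM in Poxn and 17.7 to 84.3 CPM in control, and of yolk to 0.216 to 0.532 CPM in Poxn and 0.384 to 2.20 CPM in control. Markers of hemocytes summed to 8.31 to 14.3 CPM in Poxn and 13.1 to 36.0 CPM in control, of photoreceptors to 0.115 to 0.396 CPM in Poxn and 0.165 to 1.26 CPM in control, and of antennal olfactory cells to 2.09 to 2.99 CPM in Poxn and 1.33 to 3.29 CPM in control, with Obp83b at 0 in every library. Markers of neurons (4 of 5 matched) summed to 108 to 132 CPM in Poxn and 78.5 to 90.8 CPM in control libraries, a sum carried by nSyb (63.3 to 95.1 CPM in Poxn, 24.2 to 40.8 CPM in control), whereas elav stood at 10.8 to 13.3 CPM in Poxn and 14.5 to 16.9 CPM in control and brp at 3.72 to 5.98 CPM in Poxn and 5.05 to 26.5 CPM in control. Of the fat body sum, apolpp made up 34.03 to 37.01 CPM in Poxn and 15.42 to 83.65 CPM in control libraries. Of the antennal sum, lush made up 2.02 to 2.73 CPM in Poxn and 0 to 2.14 CPM in control libraries. In these lists 0 genes passed the criterion by edgeR in either direction.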
